A study of Mus musculus with 12 samples.

Results

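The 71 transcripts described here were abundant in input RNA of mouse dorsal root ganglia and nearly absent from the ribosome pulldown (IP) of the same tissue. They were chosen by their measured counts. A transcript was kept with at least 300 estimated counts in both input groups and at most 2 in both IP groups, each group being the sum of its 3 samples. The table lists 101744 mouse transcripts, of which 35917 had a count in any sample and 1282 reached the input minimum in both groups. Their low IP counts are therefore a description of the choice, with no test.

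All mice carried the genotype RPL22HA+/+;Advillin-Cre+, in the controls as in the injured animals. The 4 groups of 3 samples were input and IP from dorsal root ganglia without injury, and input and IP from ganglia after sciatic nerve injury. The sources used here do not state the age of the mice, how long after the injury tissue was taken, how many mice were used or whether ganglia were pooled. The molecule field reads total RNA for the input, while its extraction text describes the pulldown, so how the input was prepared remains uncertain.

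In a RiboTag mouse, Cre recombinase switches on a ribosomal protein with an HA tag, and an antibody to the tag recovers tagged ribosomes with the RNA bound to them. Advillin-Cre is active in peripheral sensory neurons. The ganglion also holds satellite glia, Schwann cells, fibroblasts, vascular and immune cells, whose RNA belongs to the input. RNA that is not on ribosomes may likewise be part of the input. Whether this includes nuclear RNA depends on how the input was prepared, which is uncertain here. Long-read cDNA sequencing can tell isoforms of a gene apart where they differ in sequence, and a quantifier such as Salmon divides reads that fit several similar transcripts among them.

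The 2 gene tables used here hold 0 of the transcript IDs, and the deposited file gives no gene names. Which RNAs the 71 are, whether a sister isoform of the same gene was in the IP, and which belong to the marker lists of glia, neurons, other cells and noncoding RNA were not analysed here. The same holds for a check of the ganglion's marker genes and for any sequence of the members. Transcripts are given by their Ensembl IDs, and at most 2 in each direction.

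The 3 samples of a group had totals that differed by 0.0374% to 0.449% of their mean. Group totals were 5056160 estimated counts for uninjured input and 4754071 for injured input. For the IP they were 636012 without injury and 571960 with it. Because of the nearly equal totals the 3 samples were summed, are called portions, and count as 1 sample here. The labels list them as separate samples, each with its own library name, and some transcripts differed between them beyond counting noise. Whether they come from separately made libraries or from separate animals is therefore not settled. Fits that take them as replicates are given at the end. Intervals cover the error of counting reads and nothing else, and no correction for amplified copies of a molecule was made here.

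In the input, the members held between 301 and 3982 counts in uninjured ganglia, with a median of 777. In injured ganglia they held between 303 and 3945, with a median of 660. Together they made up 1.48% of the uninjured and 1.43% of the injured input counts. None was among the very most abundant RNAs, since the highest of them ranked 277 in uninjured and 276 in injured input. By mean input count, 17 members lay under 500, 32 between 500 and 1000, 16 between 1000 and 2000 and 6 above 2000. The other 1211 abundant transcripts had higher medians, of 1229 and 1149 counts.

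In the IP, 41 of the 71 members had 0 counts in all 6 portions. Another 23 had a count in 1 portion and 7 in 2 portions, and none in more. The summed IP counts of all members were 23 in uninjured and 26 in injured ganglia. With the same share of the IP as of the input, they would have held 9399 and 8186 counts. The lowest such value for a single member was 37.8 in uninjured and 36.5 in injured ganglia, and the highest was 501 and 475. The medians of the other abundant transcripts also fell below an equal share. They were 39 and 54.3 counts in uninjured and injured IP. For the members, whose input medians were lower, the median equal share was already 97.7 and 79.5 counts. The input medians of the other abundant transcripts, 1229 and 1149, come from larger totals and do not give the size of this shortfall. At an equal share each of the 71 would have held more than the limit of 2 counts. An equal share is only a yardstick, and whether the depth of the IP accounts for the low counts was not tested.

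A floor of 3 counts per summed group was set for members at 0. The 53 members at 0 in uninjured IP were, by that floor, at least 12.9-fold to at least 167-fold lower there than in the input, with a median of at least 32.6-fold. The 52 members at 0 in injured IP were at least 12.2-fold to at least 158-fold lower, with a median of at least 23.3-fold. These values use library totals. Scaling by trimmed mean of M-values (TMM) over the 4 groups gave larger ones, with medians of at least 88.9-fold and at least 72.3-fold. That change of scaling multiplies the value of every transcript in a condition by the same factor, so it does not set the members apart.

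**Figure D1:**
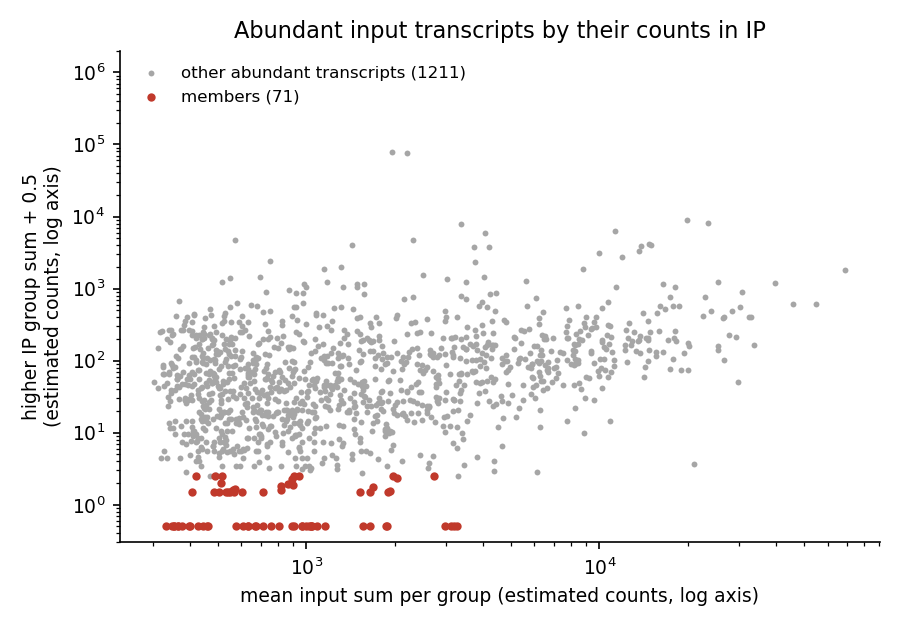
Each point is 1 of the 1282 transcripts with at least 300 counts in both input groups, with its mean input count on the horizontal and its higher IP group sum plus 0.5 on the vertical log axis. The 71 members (red) form the lower edge of a continuous cloud, and 41 of them lie at 0.

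The minimum and maximum cut through a continuous range. Just inside the input minimum were members with a lower input sum of 301, 303 and 308 counts, and just outside it were transcripts equally low in IP with 299, 296 and 292. The highest IP sum among members was 2.00, and the lowest outside was 2.004. Of the 1282 abundant transcripts, 67 had a higher IP sum above 2 and up to 5, and 93 one above 5 and up to 10.

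Low IP counts in one condition went along with low counts in the other only in part. Of the abundant transcripts, 162 had at most 2 counts in uninjured IP and 102 in injured IP, and the 71 members are those in both lists. They are 43.8% of the first list and 69.6% of the second. Of all 1282 abundant transcripts, 102 were low in injured and 162 in uninjured IP, so both shares lie above those over all of them. The 91 that were low in uninjured IP alone had a median of 6 counts in injured IP and reached 162, but 65 of them held at most 10 there. The 31 that were low in injured IP alone had a median of 5.36 counts in uninjured IP and reached 75, and 21 of them held at most 10. Most of the mismatch thus lay at low counts, near the limit of 2.

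A feature that the choice did not use is how far the 3 input portions of a member differed from each other. The portions of 29 members (40.8%) differed beyond counting noise in at least 1 input group, at a chi-square p of at most 0.01. Among the other abundant transcripts this share was 14.0%, or 170 of 1211. In both input groups the portions differed for 17 members and for 57 of the others. The median chi-square was 2.39 and 2.43 times counting noise for the members in uninjured and injured input, against 1.45 and 1.26 times for the others. No test of this difference was made, because transcripts are not replicates.

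The difference in share was seen at each level of input. Between 300 and 500 counts, portions differed for 6 of 17 members and for 26 of 210 others. Between 500 and 1000 counts they differed for 11 of 32 members and 49 of 331 others, and between 1000 and 2000 counts for 9 of 16 and 38 of 230. Between 2000 and 4000 counts the numbers were 3 of 6 and 29 of 172.

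Among the members, the differing portions were mostly in those with no IP count at all. They were found in 22 of the 41 members at 0 in IP, or 53.7%. In the 30 members with above 0 and up to 2 counts in IP they were found in 7, or 23.3%, which is close to the 23.9% (16 of 67) of transcripts just outside, with above 2 and up to 5 counts. The share was 10.1% (16 of 158) for transcripts with above 300 counts in IP.

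**Figure D2:**
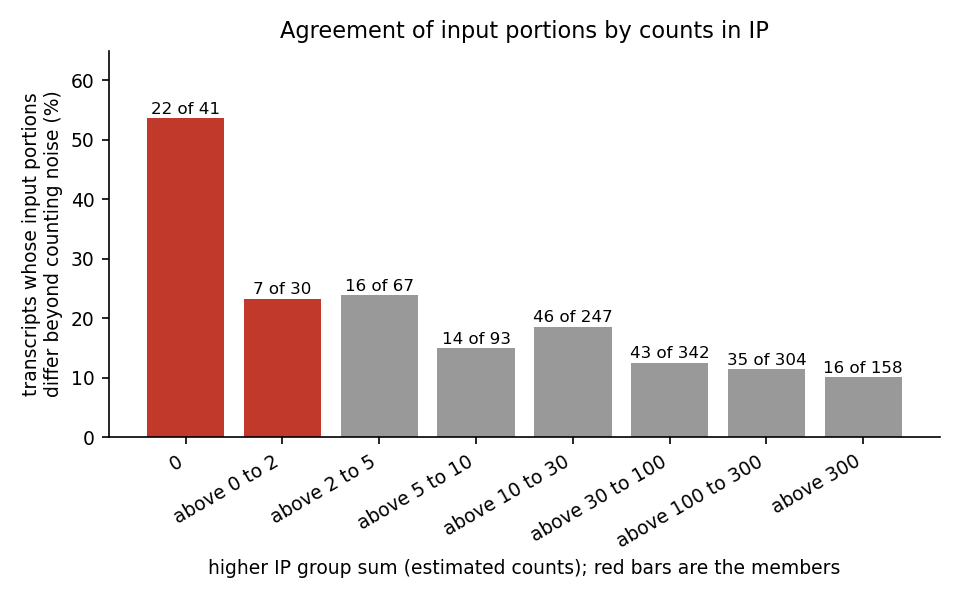
Bars give the percentage of abundant input transcripts whose 3 input portions differed beyond counting noise in at least 1 input group, by their higher IP group sum, with the number above each bar. The bar for transcripts at 0 in IP stands at 53.7%, and the others lie between 10.1% and 23.9%.

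An input portion at exactly 0 was found in 6 members (8.45%) and in 9 of the other 1211 (0.743%). All 6 had 0 counts in the IP. One of them held 303, 256 and 823 counts in the uninjured portions and 660, 0 and 0 in the injured ones. Another held 318, 0 and 47.9 counts, then 341, 0.007 and 0. Yet another held 783, 98.6 and 338 counts, then 285, 0 and 115. For these members the portions of 1 group spanned most of the range between 0 and their highest value. The input values of members were not whole numbers in 97.9% of cases, and those of the other abundant transcripts in 99.5%, so nearly all of them were fractional. Whether a shifting division of reads among similar transcripts accounts for the differing portions or for the zeros in the IP was not tested.

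The comparison of injured with uninjured input asks how these RNAs differed in the whole ganglion after nerve injury. To be counted, a transcript had to differ by a factor of 2 or more. In addition the exact conditional 95% counting interval of its ratio had to leave out 1, and the portions of the 2 groups had to lie apart. The input groups were scaled together with TMM factors. The counts rest on summed samples and carry no p-value. In bulk tissue, fewer cells of a type and less RNA per cell cannot be told apart. The minimum of 300 counts in both groups also trims large changes from the list.

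After injury, 11 of the 71 members (15.5%) were at least 2-fold higher in the input. The background was 12.4% of all 6366 compared transcripts and 13.5% of the other abundant ones. At least 2-fold lower were 4 members (5.63%), against 4.73% of all compared transcripts and 1.07% of the other abundant ones. Outside the members the lower share fell with rising IP counts. It went from 2.99% (2 of 67) at above 2 and up to 5 IP counts to 0% (0 of 158) at above 300. The share of higher members lies near the background. The 4 lower members are few, and the portions of each differed beyond counting noise in at least 1 input group. Among the 42 members whose portions agreed, 6 were counted higher and 0 lower. The matching shares of other abundant transcripts with agreeing portions are not given, so these counts have no background.

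Without the size clause, the portions of the 2 groups did not overlap for 48 members, 23 higher and 25 lower after injury. That is 67.6% of the members, against 48.4% of all compared and 72.6% of the other abundant transcripts. The median log2 injury fold was -0.08 for the members, -0.03 for the other abundant transcripts and 0.01 for all compared. The quartiles of the members were -0.44 and 0.64, and 40 members differed less than 1.5-fold. The scaling moved all of these folds together. With library totals alone every log2 fold is lower by 0.16, 27 members lie above 0 and 44 below in place of 34 and 37, and the medians are -0.25, -0.19 and -0.19 in the same order.

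**Figure D3:**
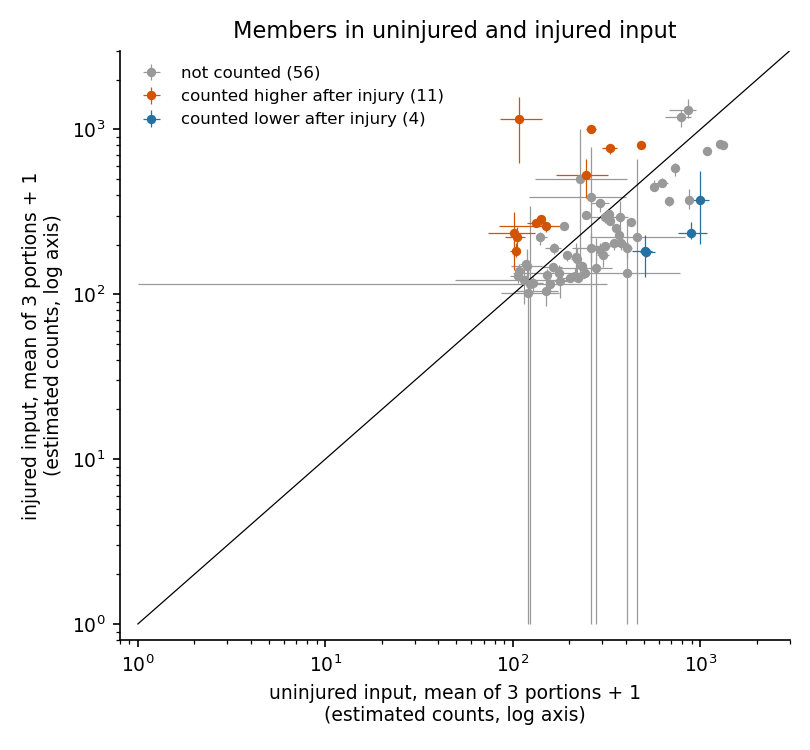
Each point is 1 of the 71 members, with the mean of its 3 portions plus 1 in uninjured input (horizontal) and injured input (vertical) on log axes and bars from the lowest to the highest portion. The diagonal marks equal unscaled counts, and the 11 members counted higher and 4 counted lower lie on either side of it, while bars that reach the axis belong to portions at 0.

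The member with the largest injury fold was ENSMUST00000123999.8. Its uninjured input portions held 92.7, 142 and 84.3 counts, and its injured ones 1573, 627 and 1253. It was 12.9-fold higher after injury (95% counting interval 11.5 to 14.5), and all injured portions lay above all uninjured ones. The injured portions differed 2.51-fold between lowest and highest, which that interval does not cover, and leaving out 1 portion at a time gave 10.5-fold to 15.8-fold. It had 0 counts in all 6 IP portions, where an equal share would have given 40.2 counts in uninjured and 416 in injured ganglia. The choice of members fixed its low IP counts in both conditions.

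ENSMUST00000168806.8 held 263, 276 and 245 counts in the uninjured input portions and 991, 1039 and 998 in the injured ones. It was 4.60-fold higher (4.25 to 4.99), with portions that agreed within counting noise in either group. In the IP it had 1 count, in an injured portion, against 364 at an equal share. Of the 11 higher members this was the largest fold among those with agreeing portions.

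ENSMUST00000060574.9 had the largest fold in the other direction. Its uninjured input portions held 829, 759 and 1089 counts and its injured ones 216, 273 and 214, so that the groups did not overlap. It was 3.19-fold lower after injury (2.94 to 3.48). Its portions differed beyond counting noise in both groups, and it had 1 count in uninjured and 1.26 in injured IP.

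ENSMUST00000213282.2 went from 572, 484 and 477 counts in the uninjured input portions to 182, 168 and 189 in the injured ones, and was 2.39-fold lower (2.16 to 2.64). Its uninjured portions differed beyond counting noise and its injured ones did not. It had 0 counts in the IP, against 193 and 64.8 at an equal share in uninjured and injured ganglia. These 4 members kept their direction and stayed beyond 2-fold under each scaling and with each input portion left out.

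**Figure D4:**
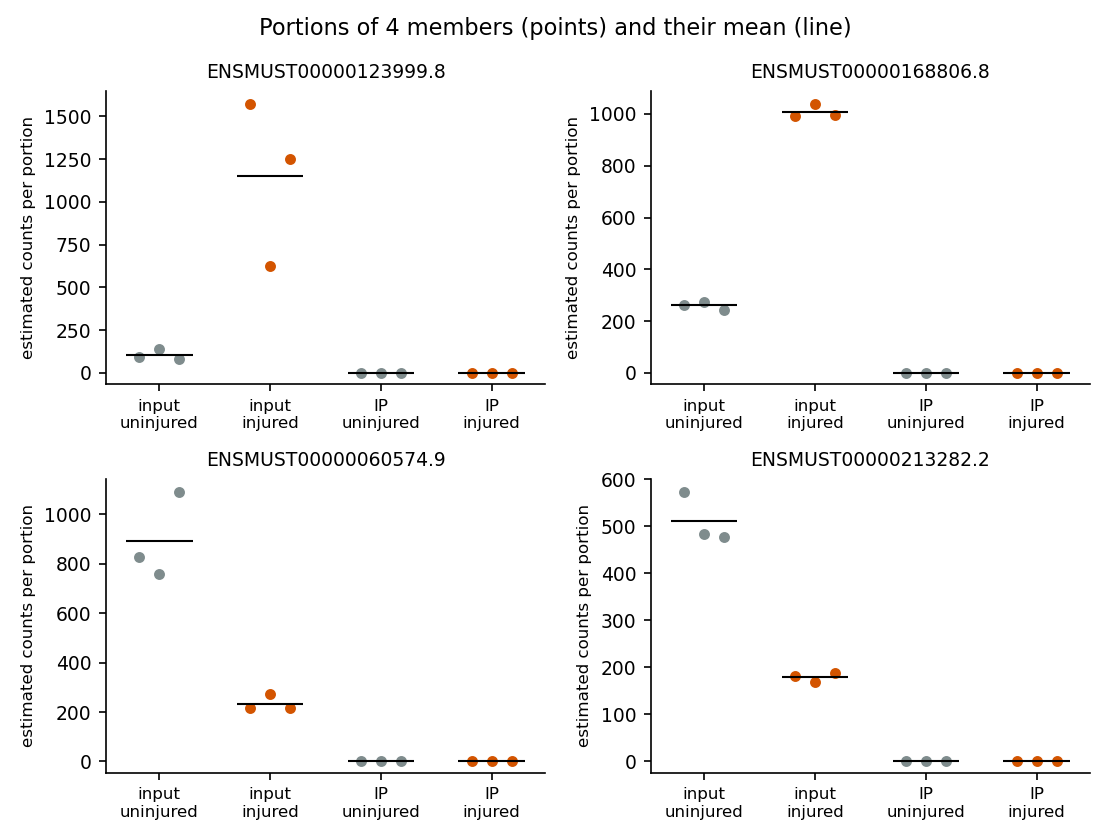
Points give the estimated counts of the 4 named members in each of the 12 samples, by group, and lines the mean of the 3 portions. In the upper panels the injured input portions lie above the uninjured ones and in the lower panels they are lower, and no IP portion exceeds 1.26 counts.

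The most abundant member in uninjured input showed a smaller difference. Its uninjured input portions held 1363, 1296 and 1323 counts and its injured ones 816, 797 and 786, with agreeing portions. It had 0 counts in the IP, where an equal share would have given 501 and 289. After scaling, its log2 injury fold was -0.48. The groups did not overlap, but the difference stayed under 2-fold.

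Taking the 3 samples of an input group as replicates gave similar counts of members. In edgeR's quasi-likelihood test with Benjamini-Hochberg adjustment over 8054 transcripts, 10 members had an adjusted p under 0.05 and a fold of 2 or more upward, and 3 the same downward. The background was 8.69% of the tested transcripts upward and 2.67% downward. It is not matched for abundance, and the 2-fold share of the other abundant transcripts is not given for this test. Without the size clause 21 were higher and 22 lower, or 60.6% of the members. Called in the same way were 61.1% of the other abundant transcripts and 24.0% of all tested ones. The members' share lies near that of the other abundant transcripts, whose median input counts were higher. With the replicate number as a block 50.7% of the members were called, against 53.2% of the other abundant transcripts and 16.5% of all. If the portions come from 1 library, these calls measure only the spread between portions.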

How the data were processed

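The authors deposited 1 table of estimated counts for single transcripts, most of them fractional where a transcript is abundant. Of tools, minimap2 and Salmon appear in the submitters' processing notes, with the builds GRCm39 and mm39 and with no role or version. Libraries were made with a PCR-cDNA barcoding kit for nanopore sequencing, per the labels' protocols. Each of the 12 columns was matched to a sample by library name.

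The 3 columns of a group were summed and rounded to whole numbers for ratios. Agreement of portions was a chi-square test against the portion totals. TMM factors came from edgeR 4.0.16 on the 2 summed input groups after filterByExpr, and transcripts under 10 CPM in both groups were left out of the comparison. Intervals are exact conditional (Clopper-Pearson, 95%), computed with scipy 1.17.1. The count rule was tested on simulated data with counting noise only and with planted changes well beyond 2-fold. Folds near 2 and portions that differ beyond counting noise, as seen in many members, were not simulated. In that setting the rule recovered 200 of 200 changed transcripts and called 3 of 5546 unchanged ones. These figures do not give its power or error in the measured data. DESeq2 1.42.0 was an alternative. Replicate pairing was checked by correlating deviations of log2 counts (0.5 added) across the 1282 abundant transcripts.

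The members and the rules were chosen with earlier results of these data known. The rule for naming was all groups of leading members where gene names could be given, and otherwise the 2 largest folds counted in each direction. Other members are described without their IDs and were picked after their values were seen.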

Additional observations from a re-analysis of the deposited data

How the results depend on the processing

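The number of members follows the limits set. It was 132 and 40 with an input minimum of 200 and 500 in place of 300, 41 and 138 with an IP maximum of 0 and 5 in place of 2, and 0 when all groups were scaled to the lowest total, which lowers every input count. Asking for 600 counts over both input groups together, an alternative chosen after seeing the data, gave 119 members, of which 25 (21.0%) were higher and 9 (7.56%) lower after injury. Of the 1385 transcripts with that input sum and more IP counts, 15.7% were higher and 1.73% lower. With 1 portion left out there were 68 to 82 members, 9 to 13 higher and 3 to 5 lower, and a median log2 injury fold of -0.18 to -0.057. The 82 came without portion 1 of injured IP and the -0.18 without portion 3 of injured input. At 1.5-fold, 17 (23.9%) were higher and 9 (12.7%) lower, against 19.1% and 11.1% of all compared and 19.8% and 6.28% of the other abundant transcripts. With agreeing portions alone 6 were higher and 0 lower, out of 42 members and with no background share. The median was -0.18 with TMM factors from all 4 groups and -0.25 with library totals. Each scaling alternative gave 8 to 10 higher and 4 to 5 lower. The background moved as well. Of all compared transcripts, 9.38% were higher and 7.41% lower with library totals, and 9.51% and 6.90% with TMM factors from all 4 groups.

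Same-numbered uninjured and injured input samples had deviations correlated at r of 0.298, 0.310 and 0.0608 over the 1282 abundant transcripts, and no pairing was assumed. Without the members r was 0.183, 0.275 and 0.102, and over the members alone 0.524, 0.415 and -0.090, so the check depends on the transcripts used. Over the 1282, injured sample 3 did not correlate best with its own number. With the replicate number as a block, edgeR gave 9 members at least 2-fold higher and 3 lower, against 10 and 3 without it. At any fold the block lowered the members called from 43 to 36. DESeq2 gave 10 and 4. Requiring all same-numbered portions in 1 direction, also chosen after seeing the data, gave 12 and 5. The alternatives on sister transcripts and on genes without a transcript in IP were not run, because the IDs could not be matched to genes. At the IP depth, a count of 0 allows up to 3 counts.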
